A study of Mus musculus with 6 samples.

Results

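The 4 TIMP genes and Reck encode the tissue's own inhibitors of matrix metalloproteinases. They were described here across 6 RNA-seq libraries of mouse articular chondrocytes, the resident cells of joint cartilage. The members Timp1, Timp2, Timp3, Timp4 and Reck were taken by gene symbol, and all 5 of them were found among the 22173 genes of the deposited table, with values in each library. The cells were wild-type primary articular chondrocytes in all groups. There were 2 control libraries (labelled control CCs), 2 libraries of the condition labelled aging SNL CCs, and 2 of that condition with Spesolimab, which is an antibody against the receptor for IL-36 cytokines. The age and number of the mice, the dose and time of the antibody, and the meaning of SNL and CCs were not given in the labels. Nor did they say whether the 2 replicates of a group came from separate animals or cultures, so the p-values below cover the variation among these libraries alone, and that variation may be technical.

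TIMPs are small secreted proteins that bind to the active site of a metalloproteinase and block it. TIMP3 is held in the extracellular matrix and also inhibits ADAM17 and the aggrecanases ADAMTS4 and ADAMTS5, whereas TIMP1 and TIMP2 act mainly on matrix metalloproteinases. RECK is an inhibitor anchored in the cell membrane and is also part of the receptor complex for WNT7 ligands. In cartilage the balance between these inhibitors and the proteases that cut collagen and aggrecan is known to bear on matrix loss in osteoarthritis.

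The libraries held between 16566791 and 17312833 expected counts. All 8 chondrocyte markers were detected. They summed to 4435 TPM (transcripts scaled to their length and to the library's total) in the first aging SNL library, and each of the others had 27045 to 30559 TPM. This library also stood apart on the first principal component, with a score of 67.94 against scores between -18.78 and -6.457, so each member's difference in aging SNL is given with and without it. Markers of other cells moved too. The 8 macrophage markers summed to between 214 and 287 TPM in the 3 libraries of replicate 1 and between 50.3 and 78.6 TPM in those of replicate 2. The 7 synovial fibroblast markers summed to 3712 and 3990 TPM in aging SNL, less than the 6441 and 4986 TPM of control or the 5767 and 4579 TPM under spesolimab. The sum does not speak for the whole list, since 4 of the 7 had a positive log2 fold change in aging SNL against control (edgeR, median 0.42), and DESeq2 called Col1a1 lower and Pdgfra higher. The 6 endothelial and mural markers stayed between 1.98 and 11.5 TPM. The part of these cells in the results below was not tested, and in bulk RNA fewer cells of a type and less RNA per cell cannot be told apart.

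The 4 TIMP genes and Reck covered a wide range of levels, read here in TPM because it is scaled to transcript length. In control Timp3 was the most abundant, at 3144 ± 537 TPM (SD, n = 2), and ranked 35th of the 17189 genes with values. Timp1 at 876 ± 5.13 TPM and Timp2 at 852 ± 56.5 TPM came next and did not differ beyond their spread. Reck followed at 112 ± 13.6 TPM, and Timp4 was lowest at 1.66 ± 0.346 TPM (SD, n = 2). In aging SNL the means of Timp1 (1095 ± 650 TPM), Timp3 (1095 ± 559 TPM) and Timp2 (690 ± 91.5 TPM) lay within their spread, and Timp3 ranked 145th. Taken by library, Timp3 was first of the members in aging SNL replicate 2, at 1490 TPM. It was second to Timp1 in replicate 1, at 699 TPM, and first in every other library. With spesolimab Timp3 had a mean of 2334 ± 415 TPM and ranked 66th. Timp2 at 821 ± 57.7 TPM and Timp1 at 718 ± 87.1 TPM followed, and differed by less than the sum of their SDs. Reck ranked below these and Timp4 lowest in every library.

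**Figure D1:**
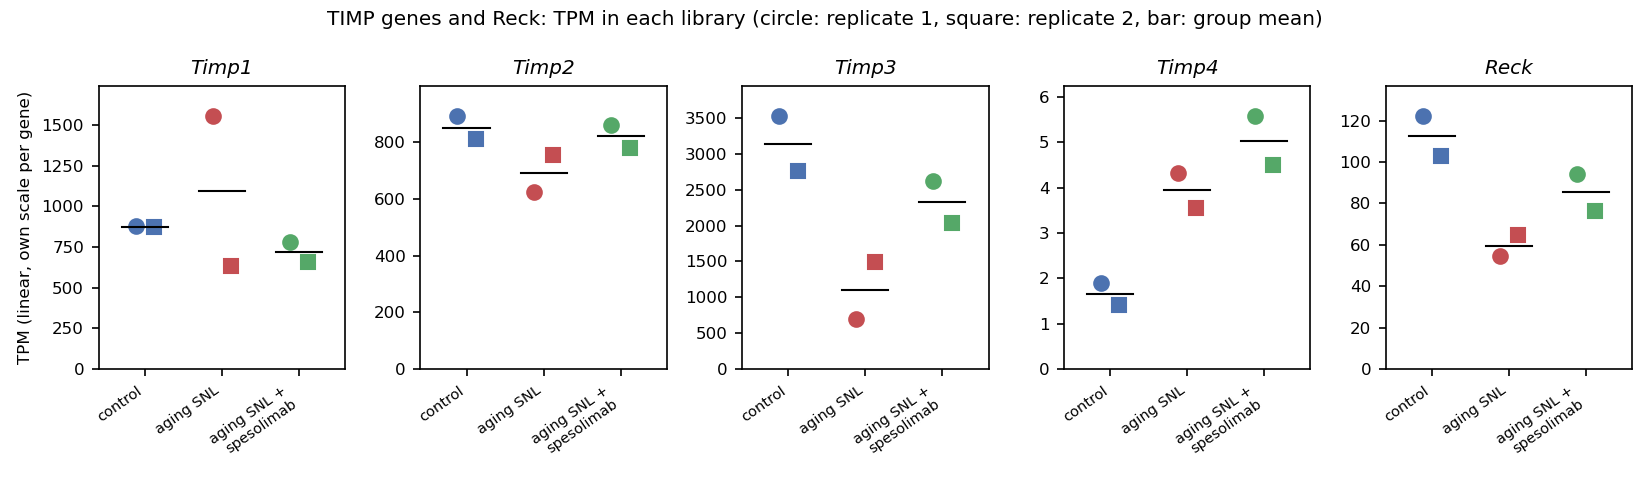
Level of each member in TPM (vertical axis, linear, starting at 0 and scaled separately for each gene) in the 3 groups, with 1 point per library and a bar at the group mean. Timp3 and Reck are lowest in the 2 aging SNL libraries, Timp4 is lowest in the 2 control libraries, and Timp1 is high in aging SNL replicate 1, at 1554 TPM, with no other library above 880 TPM.

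The first comparison, of aging SNL with control, asks how chondrocytes differ under that condition. Timp3 and Reck were lower and Timp4 was higher in both aging SNL libraries than in both controls, Timp1 was split between the replicates, and the Timp2 values overlapped. Counts were scaled as CPM to library sizes adjusted by TMM factors, with no scaling to length, and tested with edgeR's quasi-likelihood test across 13399 genes, with Benjamini-Hochberg adjusted p-values and a threshold of 0.05. Of the 5 members 0 passed with all 6 libraries, where 0% of all genes were called. At an unadjusted p under 0.05 there were 3 members and 1694 of all genes. DESeq2 called 3 members against 3.39% of all genes it tested, and limma on log2(TPM + 1) called 0. Groups that did not overlap were found for 3 of the 5 members and for 41.9% of all genes, so that this separation alone is common in these libraries.

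Timp3 measured 7315 and 5620 CPM in the control libraries, 1899 and 3244 CPM in those of aging SNL and 5802 and 4437 CPM in those given spesolimab. The control and aging SNL libraries did not overlap, and aging SNL replicate 1 was the lowest of the 6. The mean was 0.398 of control, a log2 fold change of -1.33 ± 0.34 (SE), with an edgeR adjusted p = 0.263. By DESeq2 Timp3 fell (adjusted p = 0.00324). Leaving out aging SNL replicate 2, it fell by 1.77 ± 0.25 (edgeR adjusted p = 0.00405), in a fit that called 25.7% of all genes. Leaving out aging SNL replicate 1, the difference was -0.99 ± 0.24 (edgeR adjusted p = 0.0774), in a fit that called 3.43% of all genes.

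Reck measured 239 and 197 CPM in the control libraries, 140 and 133 CPM in those of aging SNL and 197 and 157 CPM in those given spesolimab. Both aging SNL libraries were below all 4 others, and unlike Timp3 they lay close together. The log2 fold change was -0.68 ± 0.16 (SE; edgeR adjusted p = 0.239), a mean of 0.624 of control. Reck fell by DESeq2 (adjusted p = 0.0236) and without aging SNL replicate 2 (log2 fold change -0.65 ± 0.17, edgeR adjusted p = 0.0373). Without replicate 1 the size was nearly the same, -0.71 ± 0.18 (edgeR adjusted p = 0.0813). The log2 CPM values of Timp3 and Reck had a Pearson r of 0.878 over the 6 libraries and of 0.993 over the 5 without aging SNL replicate 1. Over those 5 Timp1 had an r of 0.96 with Reck and 0.93 with Timp3, against -0.206 and -0.646 over the 6. A high r over the 5 is therefore not particular to Timp3 and Reck. These points share their libraries and scaling, and the values are descriptions.

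The 250 bases before the annotated start of Timp3 and Reck, which were lower together, and of Timp4, which was higher, are printed for comparison from RefSeq on mouse build GRCm38.p6, while the submitters' processing notes name GRCm39. All 5 members matched an entry. Capitals mark every match, on either strand, to 7 motifs: the GC box GGGCGG, the CCAAT box CCAAT, the Ets motif CAGGAAG, the AP-1 motif TGANTCA, the TATA box TATAAA, the STAT motif TTCNNNGAA and the SMAD motif GTCTAGAC.
Timp3, chr10:86300162-86300411, plus strand: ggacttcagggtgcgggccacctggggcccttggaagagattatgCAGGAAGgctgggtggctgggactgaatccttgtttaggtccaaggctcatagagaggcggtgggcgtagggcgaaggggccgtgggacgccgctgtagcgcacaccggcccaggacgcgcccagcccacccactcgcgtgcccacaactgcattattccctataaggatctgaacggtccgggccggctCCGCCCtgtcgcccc
Reck, chr4:43875280-43875529, plus strand: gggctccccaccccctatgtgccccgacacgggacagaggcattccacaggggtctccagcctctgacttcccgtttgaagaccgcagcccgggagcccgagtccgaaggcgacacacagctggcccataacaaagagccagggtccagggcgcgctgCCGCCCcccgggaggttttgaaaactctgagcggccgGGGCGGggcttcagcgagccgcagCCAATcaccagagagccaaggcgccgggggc
Timp4, chr6:115252206-115252455, minus strand: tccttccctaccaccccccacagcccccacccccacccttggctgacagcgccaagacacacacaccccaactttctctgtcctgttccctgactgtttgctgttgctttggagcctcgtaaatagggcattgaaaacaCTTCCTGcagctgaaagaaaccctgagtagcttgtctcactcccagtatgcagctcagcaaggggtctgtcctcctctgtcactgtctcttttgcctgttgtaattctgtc
The window of Timp3 held 1 GC box and 1 Ets motif, that of Reck 2 GC boxes and 1 CCAAT box, and that of Timp4 1 Ets motif. The windows of Timp3 and Reck were 65.6% and 68.4% G and C, and that of Timp4 53.6%. The window of Timp2, whose groups overlapped in CPM, was 68% and held 1 GC box and 1 CCAAT box. That of Timp1, split between the replicates, was 54.4% and held 1 GC box, 1 CCAAT box and 2 Ets motifs. The median over 32851 windows was 52.4%. Of those windows 32.7% held a GC box, 33.8% a CCAAT box, 10.8% the Ets motif, 6.75% AP-1, 12.4% a TATA box, 7.02% STAT and 0.167% SMAD, so matches of the first 2 kinds are common. The last 4 motifs had no match in any of the 5 members' windows, which says only that these letters are not there.

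Timp4, which in most tissues is the least widely expressed TIMP, measured 2.4 and 1.74 CPM in the control libraries, 7.14 and 4.7 CPM in those of aging SNL and 7.48 and 5.94 CPM in those given spesolimab. The 2 control libraries were below the 4 others, and the aging SNL and spesolimab libraries overlapped in CPM but not in TPM, where aging SNL gave 4.32 and 3.55 and spesolimab 5.57 and 4.49. The counts behind them were 42 and 31, 115 and 78, and 128 and 101 in the same order, so that counting error alone was 18% at the lowest. The log2 fold change in aging SNL was 1.51 ± 0.32 (SE; edgeR adjusted p = 0.208), a mean 2.86 times that of control. Timp4 rose by DESeq2 (adjusted p = 0.0106) and without aging SNL replicate 2 (log2 fold change 1.78 ± 0.28, edgeR adjusted p = 0.00616). Without replicate 1 the difference was 1.18 ± 0.30 (edgeR adjusted p = 0.0903).

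Timp1, an inhibitor that inflammatory cytokines are known to induce, measured 264 and 255 CPM in the control libraries, 613 and 200 CPM in those of aging SNL and 246 and 205 CPM in those given spesolimab. Aging SNL replicate 1 was the highest of the 6 libraries and replicate 2 the lowest, on either side of close controls. Of all genes tested 43.4% had their 2 aging SNL libraries on opposite sides of the control mean. The log2 fold change was 0.65 ± 0.50 (SE; edgeR adjusted p = 0.619). It was 1.24 ± 0.12 without replicate 2, where Timp1 rose (edgeR adjusted p = 0.00121), and -0.38 ± 0.13 without replicate 1 (edgeR adjusted p = 0.173). Timp2, which also takes part in the activation of Mmp2 at the cell surface, measured 1409 and 1256 CPM in the control libraries, 1294 and 1252 CPM in those of aging SNL and 1448 and 1291 CPM in those given spesolimab. Its 3 groups overlapped in CPM, whereas in TPM both aging SNL libraries, at 626 and 755, were below both controls, at 892 and 812. The log2 fold change in aging SNL was -0.07 ± 0.15 (SE; edgeR adjusted p = 0.874), and it stayed between -0.09 and -0.05 when either aging SNL replicate was left out.

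Without aging SNL replicate 2 the members called were therefore 2 lower, Timp3 and Reck, and 2 higher, Timp4 and Timp1, where 12.3% and 13.4% of all genes were called in these directions. In that fit all 8 chondrocyte markers had a negative log2 fold change (median -2.35). Without aging SNL replicate 1 all 8 were positive (median 0.58), while Timp3 was at -0.99 and Reck at -0.71. The part of the marker changes in the members' differences was not tested. None of the 5 passed in edgeR without aging SNL replicate 1. In each of these fits the lone aging SNL library is assumed to vary like the other groups. The 2 aging SNL libraries differed far more, with a chi-square per degree of freedom of 238 against 13.6 in control and 17.6 with spesolimab. The p-values that these fits give for aging SNL, above and below, rest on the spread of the other groups and are probably too small. TPM gave the same directions, on a scale where the median of all genes tested was -0.22 in aging SNL against control (log2(TPM + 1)) and 0.01 in edgeR.

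**Figure D2:**
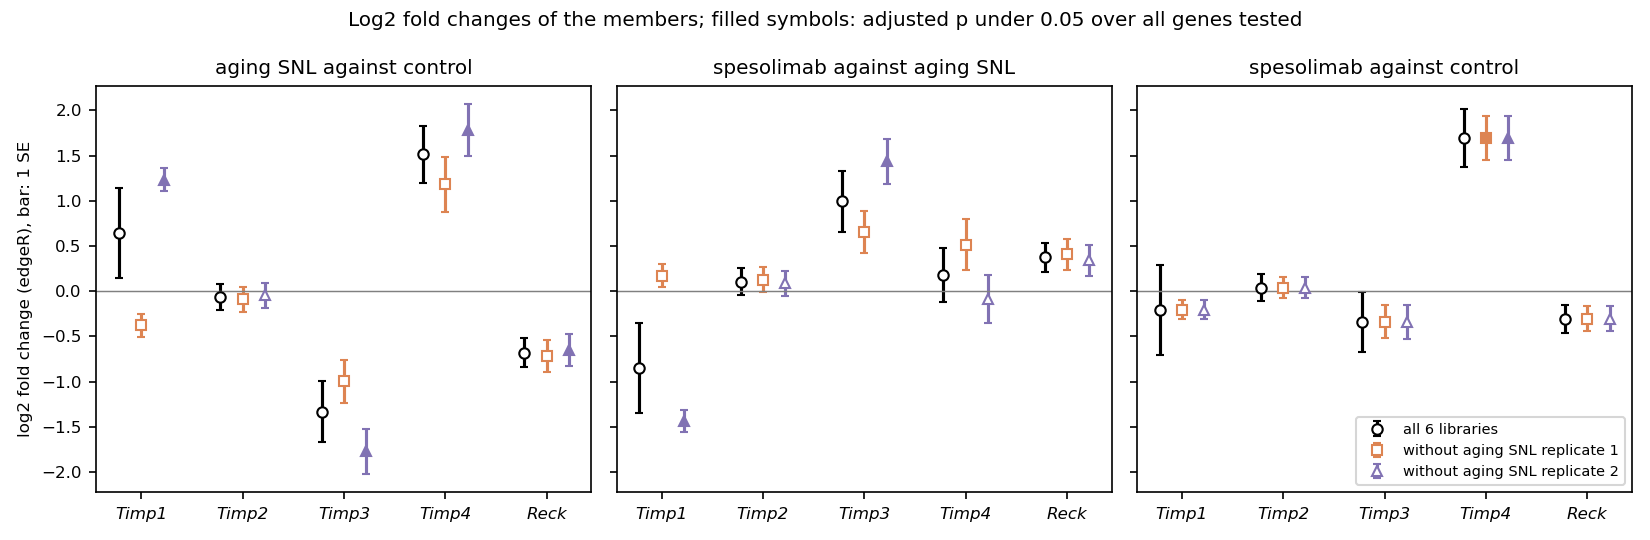
Log2 fold changes from edgeR (vertical axis) with bars of 1 SE for the 5 members in the 3 comparisons, in all 6 libraries and without either aging SNL replicate. Filled symbols passed an adjusted p of 0.05 over all genes tested. Timp3, Timp4 and Reck keep their direction against control in all 3 fits, and Timp1 changes sign in aging SNL with the replicate left out.

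The second comparison, of aging SNL with and without spesolimab, asks how the members differ when the antibody is added. Whether it blocked the receptor in these mouse cells was not tested, and the labels name no group with a control antibody. The aging SNL libraries are those of the first comparison, so a gene low in them by their spread would read higher here. With spesolimab Timp3 and Reck were higher than in aging SNL in every library, at levels nearer to control. The Timp4 values overlapped in CPM. None of these differences passed with all 6 libraries. The 5 members gave 0 calls in edgeR, where 0% of all genes were called, with 1 member and 392 of all genes at an unadjusted p under 0.05. DESeq2 called 0 members and 0.0224% of all genes, and limma 0 members. Timp3 was 0.99 ± 0.34 higher on the log2 scale (SE; edgeR adjusted p = 0.956), a mean 1.99 times that of aging SNL. The 2 groups did not overlap. With the second aging SNL library left out Timp3 rose by 1.44 ± 0.25 (edgeR adjusted p = 0.00967), in a fit that called 20.5% of all genes. Without replicate 1 it was 0.66 ± 0.23 higher (edgeR adjusted p = 0.783), in a fit that called 0%.

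Reck was 0.37 ± 0.16 higher with spesolimab on the log2 scale (SE; edgeR adjusted p = 0.956), and its groups did not overlap. The difference was 0.41 ± 0.17 without aging SNL replicate 1 and 0.34 ± 0.17 without replicate 2 (edgeR adjusted p = 0.783 and 0.21). It was 0.20 without spesolimab replicate 1 and 0.53 without spesolimab replicate 2. Timp3 and Reck were the 2 of 5 members higher with no overlap, which was so for 13.5% of all genes. For Timp4 the difference was 0.18 ± 0.30 (edgeR adjusted p = 0.963), and it was -0.09 ± 0.26 without aging SNL replicate 2 and 0.51 ± 0.28 without replicate 1. Timp1 had a log2 fold change of -0.85 ± 0.50 (edgeR adjusted p = 0.956). Timp1 fell without aging SNL replicate 2, by 1.44 ± 0.12 (edgeR adjusted p = 0.000916), and without replicate 1 its difference was 0.17 ± 0.13 (edgeR adjusted p = 0.799). Timp2 differed by 0.11 ± 0.15 (edgeR adjusted p = 0.956).

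Spesolimab-treated aging SNL cells were also compared with control, and share the control and spesolimab libraries with the comparisons above. Timp4 was above control, by 1.69 ± 0.32 on the log2 scale (SE; edgeR adjusted p = 0.34), a mean 3.24 times that of control. In edgeR 0 of the 5 members and 0% of all genes passed with 6 libraries, and 1 member and 827 of all genes had an unadjusted p under 0.05. Timp4 was the 1 member called by DESeq2, where it rose (adjusted p = 0.00479) and 1.19% of all genes were called, and limma called 0. In the fit of the 4 libraries compared, which does not use aging SNL, Timp4 rose by 1.70 ± 0.25 (edgeR adjusted p = 0.0258), and 2.88% of all genes were called. It rose by nearly the same size without aging SNL replicate 1 (edgeR adjusted p = 0.0244, 2.82% of all genes called) and without replicate 2 (edgeR adjusted p = 0.0253, 2.8% called). Those fits compare the same 4 libraries, and a lone aging SNL library adds nothing to the spread within groups. They therefore repeat the fit of 4 libraries and are not separate evidence.

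The other members were not called against control in any of these fits. Timp3 was at a mean of 0.792 of control with overlapping groups, a log2 fold change of -0.34 ± 0.33 (SE; edgeR adjusted p = 1). Reck was lower by a log2 fold change of -0.31 ± 0.16 (edgeR adjusted p = 0.936), with its highest spesolimab library, at 197 CPM, just under the lowest control. Timp1 had a log2 fold change of -0.20 ± 0.50 and Timp2 of 0.04 ± 0.15 (edgeR adjusted p = 1 for each). Groups without overlap were found for 3 of 5 members, Timp4 higher and Timp1 and Reck lower, and for 48.4% of all genes, 23.8% higher and 24.6% lower.

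Added together, the 4 TIMP genes reached 5296 and 4449 TPM in control, 2884 TPM in each aging SNL library, and 4275 and 3482 TPM under spesolimab. Both aging SNL libraries were lower than the others, and their makeup differed. Their sums were close in TPM but not in CPM, where they were 3812 and 4701. Timp3 made up 66.5% and 62.1% of the control sums, 24.2% and 51.7% of those of aging SNL, and 61.5% and 58.6% of those under spesolimab. Timp1 made up 53.9% in the first aging SNL library, against 16.6% to 22% elsewhere. With 2 libraries a group an exact permutation test cannot go below a two-sided p of 0.333, so sums and ratios are given as values with no test.

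Metalloproteinase transcripts were then set against those of the TIMPs. The 19 matrix metalloproteinase genes with values summed to 3800 and 3773 TPM in the control libraries, 28571 and 6244 TPM in those of aging SNL, and 5318 and 4962 TPM in those given spesolimab. Per TIMP transcript this was 0.718 and 0.848 for control, 9.91 and 2.17 for aging SNL, and 1.24 and 1.43 under spesolimab. The 3 groups did not overlap in this ratio, and Mmp3 and Mmp13 supplied between 79.7% and 96.4% of the summed metalloproteinase level. Adamts4 and Adamts5 together, the aggrecanases that TIMP3 inhibits, had 34.7 and 38.5 transcripts per 1000 of Timp3 for control, 306 and 46 for aging SNL, and 42.2 and 49.5 under spesolimab. Only aging SNL replicate 1 was far from the rest in that ratio.

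**Figure D3:**
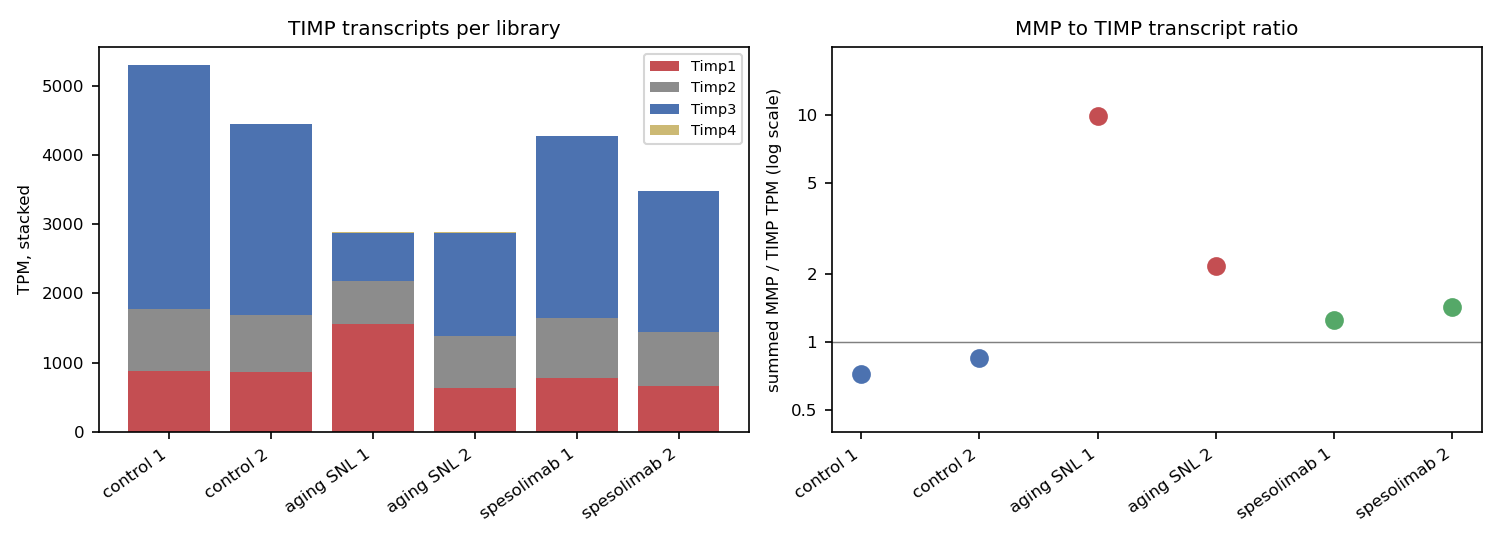
Left, TPM of the 4 TIMP genes stacked for each library. Right, summed TPM of 19 matrix metalloproteinase genes divided by summed TIMP TPM (log axis), 1 point per library with a line at 1. The TIMP sum is lowest in the 2 aging SNL libraries, at 2884 TPM each, and the ratio is below 1 in the 2 controls and highest in aging SNL replicate 1, at 9.91.

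Of the matrix metalloproteinases, 15 of 21 listed genes could be tested. In aging SNL against control 10 had a positive and 5 a negative log2 fold change, with a median of 0.40 beside 0.01 over all genes, and edgeR called 0 of them, with 5 at an unadjusted p under 0.05. The median was 0.10 with aging SNL replicate 1 left out and 0.59 with replicate 2 left out. DESeq2 called 1, Mmp3, higher and limma 0. In the fit without aging SNL replicate 1 there were 9 positive and 6 negative log2 fold changes, with Mmp3 at 1.72. Without replicate 2, where 16 were tested, 11 were positive and 5 negative, with Mmp3 at 4.92. Mmp3, stromelysin, measured 854 and 579 CPM in the control libraries, 21771 and 2366 CPM in those of aging SNL and 1759 and 1427 CPM in those given spesolimab. Its groups did not overlap. Mmp13, the main collagenase of mouse cartilage, measured 2114 and 2530, then 7022 and 2922, then 2744 and 2861 CPM in the same order, highest in aging SNL replicate 1. Mmp2, a gelatinase, measured 437 and 372 CPM in the control libraries, 1175 and 437 CPM in those of aging SNL and 483 and 423 CPM in those given spesolimab, and stood out in that library alone. Mmp14, the membrane protease that RECK inhibits and that TIMP2 binds, lay between 347 and 402 CPM in all 6 libraries. Mmp9, the other gelatinase, measured 0.743 and 0.561 CPM in the control libraries, 9.01 and 0.964 CPM in those of aging SNL and 0.934 and 1 CPM in those given spesolimab. Mmp11 measured 22.5 and 19.8 CPM in the control libraries, 13.3 and 14.9 CPM in those of aging SNL and 23 and 15.9 CPM in those given spesolimab, lower in both aging SNL libraries than in the others.

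All 14 listed ADAM and ADAMTS proteases could be tested. In aging SNL 9 had a positive and 5 a negative log2 fold change, with a median of 0.06, and edgeR called 0, with 3 at an unadjusted p under 0.05. DESeq2 called Adamts1 higher and Adamts9 lower, and limma called 0. Leaving out aging SNL replicate 1 gave 8 positive and 6 negative log2 fold changes (median 0.02). Leaving out replicate 2 gave 7 of each sign (median 0.05). Adamts9, a protease of proteoglycans, measured 118 and 122 CPM in the control libraries, 35.2 and 39 CPM in those of aging SNL and 69.7 and 49.5 CPM in those given spesolimab, with no overlap between the 3 groups. It fell without aging SNL replicate 1 (log2 fold change -1.62 ± 0.20, edgeR adjusted p = 0.0162) and without replicate 2 (-1.77 ± 0.20, edgeR adjusted p = 0.00185). Adamts5, the main aggrecanase of mouse cartilage, measured 393 and 333 CPM in the control libraries, 945 and 222 CPM in those of aging SNL and 372 and 350 CPM in those given spesolimab. Like Timp1 it lay on either side of control in the aging SNL replicates, and it rose without replicate 2 (edgeR adjusted p = 0.00088) and fell without replicate 1 (edgeR adjusted p = 0.0442). Adamts1 measured 148 and 138, then 262 and 197, then 188 and 222 CPM in the 3 groups. Adamts4 lay between 21.8 and 33.1 CPM, and the sheddase Adam10 between 141 and 155 CPM. Adam17, the sheddase that TIMP3 inhibits, measured 91.1 and 82, then 109 and 103, then 93.4 and 94.5 CPM, with both aging SNL libraries above the other 4. Against control the log2 fold change was 0.30 ± 0.10 (edgeR adjusted p = 0.336), and it rose with replicate 2 left out (0.33 ± 0.10, edgeR adjusted p = 0.0471).

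**Figure D4:**
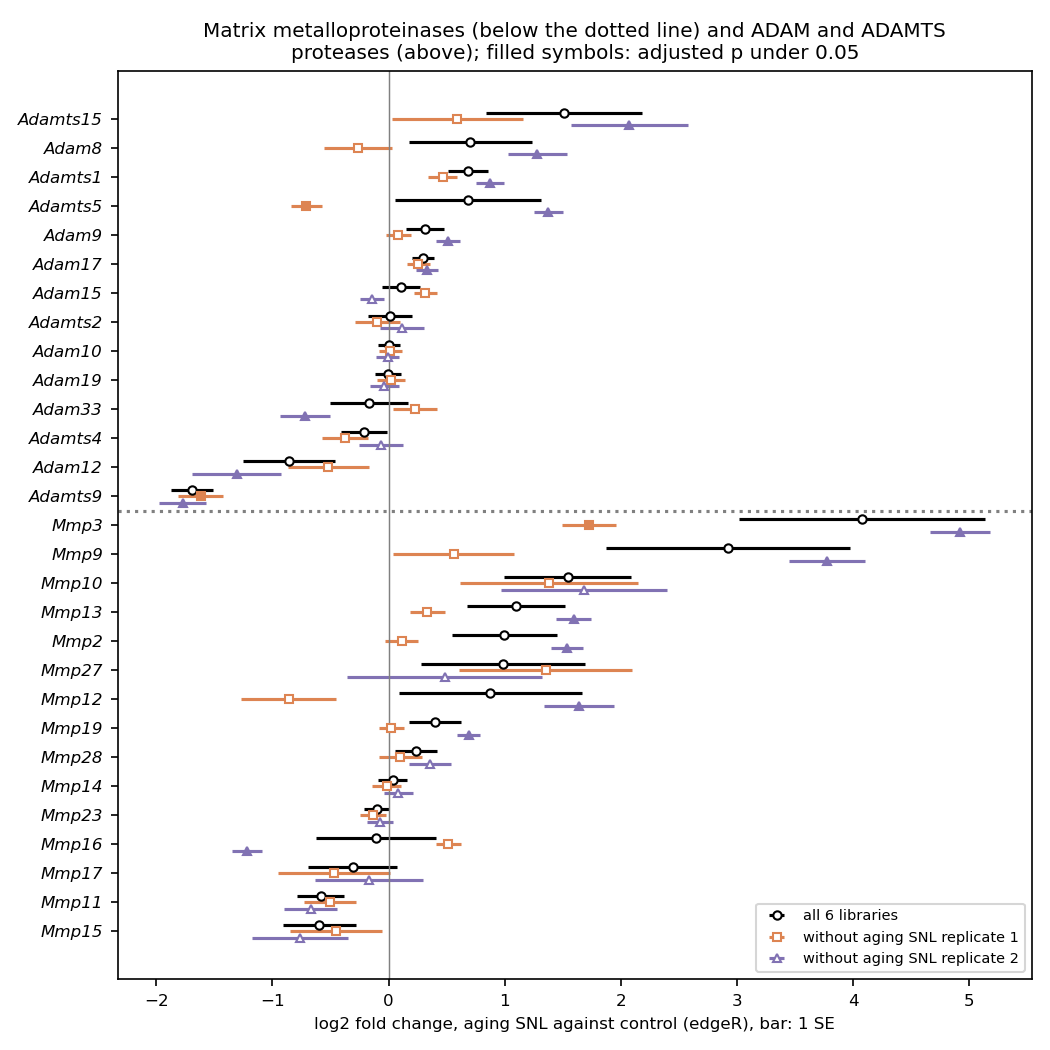
Log2 fold change of aging SNL against control (horizontal axis, bars of 1 SE, edgeR) for 15 matrix metalloproteinase and 14 ADAM and ADAMTS genes, in all 6 libraries and without either aging SNL replicate; filled symbols passed an adjusted p of 0.05. Mmp3 and Adamts9 are called in both fits that leave out an aging SNL library, and Adamts5 is called in opposite directions.

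Of 7 receptors and binding partners of TIMPs 6 could be tested, with 5 positive and 1 negative log2 fold change in aging SNL and 0 calls by edgeR, DESeq2 or limma, and 0 at an unadjusted p under 0.05 in edgeR. With aging SNL replicate 1 left out 3 were positive and 3 negative, so the tally rests on that library. Lrp1, the endocytic receptor that clears TIMP3 and several proteases, measured 2701 and 2296 CPM in the control libraries, 4522 and 2512 CPM in those of aging SNL and 3027 and 2482 CPM in those given spesolimab. It was highest in aging SNL replicate 1, and rose without replicate 2 (edgeR adjusted p = 0.0148). Lrpap1, the chaperone of that receptor, lay between 130 and 158 CPM. Itga3, an integrin subunit, measured 30.1 and 30.3 CPM in the control libraries, 72.9 and 28.3 CPM in those of aging SNL and 29.3 and 38 CPM in those given spesolimab. Of 7 genes of the WNT7 receptor complex that RECK belongs to, 6 could be tested, 2 with a positive and 4 with a negative log2 fold change. EdgeR, DESeq2 and limma called 0, and 1 had an unadjusted p under 0.05 in edgeR. Wnt7b, a ligand of that complex, measured 0.972 and 1.18 CPM in the control libraries, 0.248 and 0.12 CPM in those of aging SNL and 1.17 and 0.942 CPM in those given spesolimab. Both aging SNL libraries were below the other 4, with a log2 fold change of -2.50 ± 0.51 at very low counts (edgeR adjusted p = 0.198). Wnt7b was named for its low p in this comparison, so a clear difference there partly follows from that choice. Lrp6, a Wnt co-receptor, measured 316 and 262, then 189 and 256, then 293 and 269 CPM.

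In RefSeq on GRCm38 Timp1 lies inside Syn1, Timp3 inside Syn3 and Timp4 inside Syn2, which are synapsin genes, and Cep295nl lies inside Timp2. No source used here gives the strand setting of the counting. The expected counts of the 5 members, Syn1, Syn2 and Cep295nl were whole in all 6 libraries, with no fraction of a read assigned to any of them. Syn3 measured 7.89 and 9.81 CPM in the control libraries, 4.6 and 5.6 CPM in those of aging SNL and 7.07 and 6.59 CPM in those given spesolimab, with the same order of groups as Timp3. Its expected counts were not whole in any of the 6 libraries. Syn2 had 5 and 4 counts for control, 104 and 16 for aging SNL, and 29 in each spesolimab library, near the 115 counts of Timp4 in aging SNL replicate 1 and well below it elsewhere. DESeq2 called 1 of these 4 genes, Syn2, higher, and edgeR and limma 0, with 2 at an unadjusted p under 0.05 in edgeR. Syn1 had between 12 and 25 counts and Cep295nl between 27 and 37, against at least 3320 for Timp1 and at least 20778 for Timp2.

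The genes most like each member were found by the Pearson r of log2 CPM over the 6 libraries among 10632 genes. For Timp3 they were Lrp3 (r = 0.9986), Ski (r = 0.9961) and Pcdhga5 (r = 0.9955), for Reck Mrvi1 (r = 0.9985), Rps18 (r = 0.9961) and Npr3 (r = 0.9956), and for Timp4 Nudt4 (r = 0.9929), Emc10 (r = 0.9923) and Agtr2 (r = 0.9896). For Timp1 they were Ftl1 (r = 0.9984), Prdx1 (r = 0.9982) and Etv3 (r = 0.9969), and for Timp2 Ccn5 (r = 0.9876), Ptgis (r = 0.9831) and Hdac3 (r = 0.9815). All of these had an r of at least 0.965 over the 5 libraries without aging SNL replicate 1. The points share libraries and scaling, and with 6 points and so many genes searched a high r is easily found. Npr3, the clearance receptor for natriuretic peptides, measured 243 and 142 CPM in the control libraries, 43 and 39.3 CPM in those of aging SNL and 146 and 74.4 CPM in those given spesolimab, a wider range than that of Reck. Agtr2, an angiotensin receptor, measured 176 and 144, then 266 and 243, then 274 and 252 CPM in the same order, with the 2 controls below the others as for Timp4.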

How the data were processed

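Poly(A) RNA was taken up on oligo(dT) beads and sequenced as cDNA on DNA nanoballs, per the labels' protocols. The authors deposited expected counts, TPM and FPKM per gene and library, per the file headers. Counts were unscaled, and 12.3% were not whole. The submitters' processing notes name build GRCm39 and, with no role, RSEM 1.3.1, Bowtie2 2.3.4.3 and DESeq2 1.4.5. The sources used here give neither annotation nor strand setting. The deposited FPKM values were used only as an alternative scale. The 9 columns of group averages were not used, and 4984 genes had empty cells throughout. Column names of the 3 replicate 2 libraries share a suffix that the labels do not explain.

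Rounded counts went into edgeR 4.0.16 (R 4.3.3): filterByExpr, TMM, 1 mean per group over 6 libraries and 3 residual degrees of freedom. The SE was obtained from the F statistic, as the fold change on the log2 scale over its root. DESeq2 1.42.0 and limma 3.58.1 (pseudocounts 1 and 0.1 on TPM), other scaling, no filter, a replicate block, 4-library fits and fits without each library were alternatives. Counting noise was exceeded between the 2 libraries of each group (chi-square per degree of freedom 13.6 in control, 238 in aging SNL and 17.6 with spesolimab) and no libraries were merged. The members and 12 gene and marker lists were chosen with earlier results of these data known. Beside the members, 9 proteases and Lrp1 were named throughout, with the 2 genes of lowest p of each list and the 3 genes of highest r per member with a mean of at least 5 CPM, leaving out provisional names. Npr3 and Agtr2 were given values after they were seen. Ddc8, Gpr124 and Ctgf were matched to Cep295nl, Adgra2 and Ccn2 through RefSeq synonyms.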

Additional observations from a re-analysis of the deposited data

How the results depend on the processing

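Over alternatives that kept all libraries compared, each member held its direction, except Timp2 with spesolimab against control (-0.0527 and -0.0528 with limma at pseudocounts of 1 and 0.1, against 0.04 in edgeR), and edgeR and limma changed no call of a member beyond the 4-library fit below. DESeq2 called 445, 3 and 160 genes in the 3 comparisons in the order above where edgeR called 0, and gave calls to Timp3 (-1.33), Timp4 (1.52) and Reck (-0.68) in aging SNL against control and to Timp4 (1.70) with spesolimab against control. The fit of 4 libraries called 382 genes with spesolimab against control, with Timp4 at 1.70 (1.695). Leaving out 1 library gave 0 to 3525, 0 to 2810 and 0 to 385 calls in the 3 comparisons. In aging SNL against control Timp1 ranged from -0.38 to 1.24 (1.235), Timp2 from -0.15 to 0.0183, Timp3 from -1.77 to -0.99, Timp4 from 1.18 to 1.78 and Reck from -0.81 to -0.54 (-0.5351). With spesolimab against aging SNL Timp1 ranged from -1.44 to 0.17, Timp3 from 0.66 to 1.44 (1.435), Timp4 from -0.0863 to 0.51 and Reck from 0.20 to 0.53. With spesolimab against control Timp2 ranged from -0.0445 to 0.13, Timp3 from -0.54 to -0.13, Timp4 from 1.48 to 1.95 (1.945) and Reck from -0.48 to -0.15. The cause of these changes was not tested. Libraries of the same number deviated together (r of 0.246, 0.419 and 0.286 between groups), but the labels do not say what a number marks. The replicate block called 0 genes in each comparison and gave Timp3 -1.33 and Reck -0.67 in aging SNL against control. The ratio of the TIMP sum, aging SNL to control, was 0.592 in TPM, 0.528 in CPM and 0.673 in FPKM, and spesolimab to aging SNL 1.34 (1.345), 1.58 and 1.22. The Timp3 share in CPM, which is not scaled to length, was 80.1%, 59.4% and 76% in control, aging SNL and spesolimab, against 64.3%, 38% and 60% in TPM. Depth limits Timp4 alone among the members.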

Other observations

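Genes known to regulate Timp1 and Timp3 were looked at as further lists. Of 15 genes of the gp130 cytokines and AP-1, which are known to induce Timp1, 14 were tested, and 11 had a positive log2 fold change in aging SNL (median 0.32 beside 0.01 over all genes). With aging SNL replicate 1 left out 4 were positive and 10 negative (median -0.13), so the direction of the list turned on that library. In edgeR 0 passed, with 2 at an unadjusted p under 0.05, and DESeq2 and limma called 0. With aging SNL replicate 2 left out 12 were positive and 2 negative (median 0.59). The cytokine Il6 had a log2 fold change of 2.72 in that fit and of -1.84 with replicate 1 left out. Jun, an AP-1 subunit, measured 53.3 and 53.5 CPM in the control libraries, 89.7 and 67.7 CPM in those of aging SNL and 57.4 and 63.6 CPM in those given spesolimab, with both aging SNL libraries above the others. Fosb, another subunit, measured 2.46 and 1.63, then 4.29 and 3.55, then 2.16 and 3 CPM.

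Of 9 TGF-beta genes, whose ligands are known to induce Timp3 in chondrocytes, 3 had a positive and 6 a negative log2 fold change in aging SNL (median -0.09, and -0.36 with aging SNL replicate 1 left out). EdgeR, DESeq2 and limma called 0, and 1 had an unadjusted p under 0.05 in edgeR. Tgfb3, named for its low p in this comparison, measured 126 and 104 CPM in the control libraries. It measured 60.3 and 83.6 CPM in those of aging SNL and 141 and 122 CPM in those given spesolimab. Both aging SNL libraries were lowest. The looser condition, of being lower there than in both controls, held for 21.1% of all genes. With aging SNL replicate 2 left out, the log2 fold change was -0.94 for Tgfb3 but 0.71 for Tgfb1 and 0.35 for Tgfb2. Smad7, an inhibitor of the pathway, measured 8.29 and 11.3, then 7.7 and 5.12, then 6.89 and 5.53 CPM.

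Of 6 other inhibitors of metalloproteinases 2 were tested, and in aging SNL against control edgeR, DESeq2 and limma called 0, with 0 at an unadjusted p under 0.05 in edgeR. A2m, which traps proteases of many classes, measured 101 and 97.4 CPM in the control libraries, 95 and 205 CPM in those of aging SNL and 241 and 230 CPM in those given spesolimab. Aging SNL replicate 1 was near control, whereas aging SNL replicate 2 and both spesolimab libraries were above control. With aging SNL replicate 1 left out A2m rose by 1.05 ± 0.09 (edgeR adjusted p = 0.00851), and without replicate 2 its difference was -0.06 ± 0.09 (edgeR adjusted p = 0.658). With spesolimab against control its log2 fold change was 1.25 ± 0.35 (edgeR adjusted p = 0.591). The value was also 1.25 with either aging SNL library left out, where the control and spesolimab libraries are the same. Tfpi2 lay between 0.706 and 1.99 CPM.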
